A study of Mus musculus with 9 samples.

Results

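Rnf19b, the gene of a membrane-anchored ubiquitin ligase, stood at 3.14 times its control level when J774A.1 macrophages were given IL-4 and IL-13, and 8 other genes of the RING-between-RING (RBR) ligase family differed from control by -0.27 to 0.24 on the log2 scale. The 9 genes described here are Rnf19b, Rnf19a, Rnf14, Rnf31, Rbck1, Arih1, Arih2, Rnf144b and Rnf216, found by symbol among the 26157 genes of the table. Rnf19b was chosen by its rise in TPM in these same libraries, so its level under cytokines is given as a description, with no test. The other 8 were taken as members of the same family.

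RBR ligases attach ubiquitin in a relay. A RING domain at the front binds the ubiquitin conjugating enzyme (E2), and ubiquitin then passes to a cysteine in the last RING domain before it reaches the substrate. In macrophages the family is best known through LUBAC, the complex that builds linear ubiquitin chains on the TNF receptor complex, and through Rnf19b, also called NKLAM, which has been described in the cytolytic granules of natural killer cells and in the phagosomes of macrophages.

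Poly-A RNA came from J774A.1, an established line of mouse macrophages, in 3 groups of 3 libraries. The Q11 group was given IL-4, IL-13 and Q11, a compound that the series title calls a CYP2E1 inhibitor. The M2 group was given 10 ng/mL of IL-4 and IL-13, the cytokines of alternative macrophage activation, and the control (Ctrl) group neither. All groups come from 1 cell line, and the sources used here give no dose of Q11, no time of treatment and no word on separate cultures, so every p-value below measures the spread between these libraries, which may be technical.

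Values are TPM (transcripts scaled to the same total in each library), which divide reads by gene length. The lengths fitted those of all annotated exons of a gene, not of the transcripts expressed, so comparisons of level between genes are approximate. A TPM value is relative to all other transcripts, and in bulk RNA fewer cells carrying a transcript and less of it per cell cannot be told apart. Recovered depth was 15815847 to 17095786 reads in 8 libraries and 32193521 reads in Q11 replicate 2. Of the 19252 genes read in Q11 replicate 3, Q11 replicate 2 held fewer reads than it in 11, whereas against each of the other 7 libraries this count was 1929 to 2413. For this reason the 2 libraries were taken to share reads. Values with the reads of Q11 replicate 3 taken out of Q11 replicate 2 are called separated below. All 8 macrophage markers looked for were above 1 TPM. Their summed levels were 7106 to 7186 TPM in Q11, 6816 to 7365 TPM in M2 and 10258 to 10646 TPM in control libraries. Most of this gap was Lyz2, which averaged 3722 TPM in Q11, 3595 TPM in M2 and 6859 TPM in control libraries. Of these markers 3 (Lyz2, Itgam and Ptprc) fell in M2 against control in limma's test, where 5.75% of all genes tested fell. The other 5 did not pass. What part these markers had in the results below was not tested. Of 8 markers of other cell types, the 3 in the table summed to at most 1.06 TPM in any library.

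The upstream sequences of Rnf19b and Rnf144b, the 2 members whose M2 libraries all lay above the controls, are shown because IL-4 and IL-13 signal through STAT6, a factor that binds TTCNNNNGAA and, like other STATs, TTCNNNGAA. Each run holds the 250 bases before a RefSeq start on the plus strand of GRCm38.p6, chr4:129057894-129058143 for Rnf19b and chr13:47122470-47122719 for Rnf144b. Capitals mark TTCNNNGAA and the shorter motif TTCC or GGAA, searched on both strands. The first TTCC of Rnf144b lies inside its TTCNNNGAA match.

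Rnf19b: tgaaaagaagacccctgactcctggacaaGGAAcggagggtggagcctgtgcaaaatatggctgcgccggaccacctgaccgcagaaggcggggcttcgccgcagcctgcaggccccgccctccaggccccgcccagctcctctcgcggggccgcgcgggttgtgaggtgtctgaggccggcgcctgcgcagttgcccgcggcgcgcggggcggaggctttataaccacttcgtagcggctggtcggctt

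Rnf144b: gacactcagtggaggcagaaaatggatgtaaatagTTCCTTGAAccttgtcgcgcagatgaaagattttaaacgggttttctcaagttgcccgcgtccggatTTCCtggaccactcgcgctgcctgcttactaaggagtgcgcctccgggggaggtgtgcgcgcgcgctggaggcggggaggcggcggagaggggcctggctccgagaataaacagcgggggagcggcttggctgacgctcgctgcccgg

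The Rnf19b window held neither STAT motif, and its 1 GGAA began 221 bases before the start. It had 69.2% G and C and 26 CG pairs, where the 32851 windows of this length had a median of 52.4% and 6. The Rnf144b window shown held TTCCTTGAA, beginning 215 bases before the start, with 61.2% G and C and 23 CG pairs. TTCNNNGAA occurs in 7.02% of all windows, TTCNNNNGAA in 5.85% and the shorter motif in 93.4%. Of the 10 windows found for 7 members, 1 held TTCNNNGAA and 0 held TTCNNNNGAA. RefSeq gives Rnf144b a further start, whose 250-base window (chromosome 13, from 47193753) held neither, and the one printed was chosen because it holds the match. A match describes the letters of a window and is not a binding site. The GENCODE start of Rnf19b lies 127 bases downstream of the RefSeq start, and that of Rnf144b (47122656) lies inside its printed window. Both windows, and the distances to the start, therefore differ with the annotation used.

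Rnf19b (ENSMUSG00000028793, GRCm38 chromosome 4, 129058271 to 129085886, plus strand) was read at 733, 722 and 705 TPM in the Q11 libraries, at 742, 744 and 741 TPM in the M2 libraries and at 236, 233 and 241 TPM in the control libraries. Every cytokine-treated library stood far above every control library, with no value between 241 and 705 TPM. The means were 719.9 ± 14.1 TPM in Q11, 742 ± 1.4 TPM in M2 and 237 ± 3.9 TPM in control libraries (SD, n = 3 in each group, here and below). The difference on the log2(TPM + 1) scale was 1.65 for M2 against control and 1.60 for Q11 against control. These comparisons share the control libraries.

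Among the 14207 genes tested, 30 had a larger rise than Rnf19b in M2 against control and 54 in Q11 against control. By mean TPM it took place 188 in Q11, 183 in M2 and 693 in control libraries. Rnf19b was therefore already abundant in unstimulated J774A.1 cells. Its values rest on 3285 to 19696 reads per library, and the other members' on 411 or more.

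**Figure D1:**
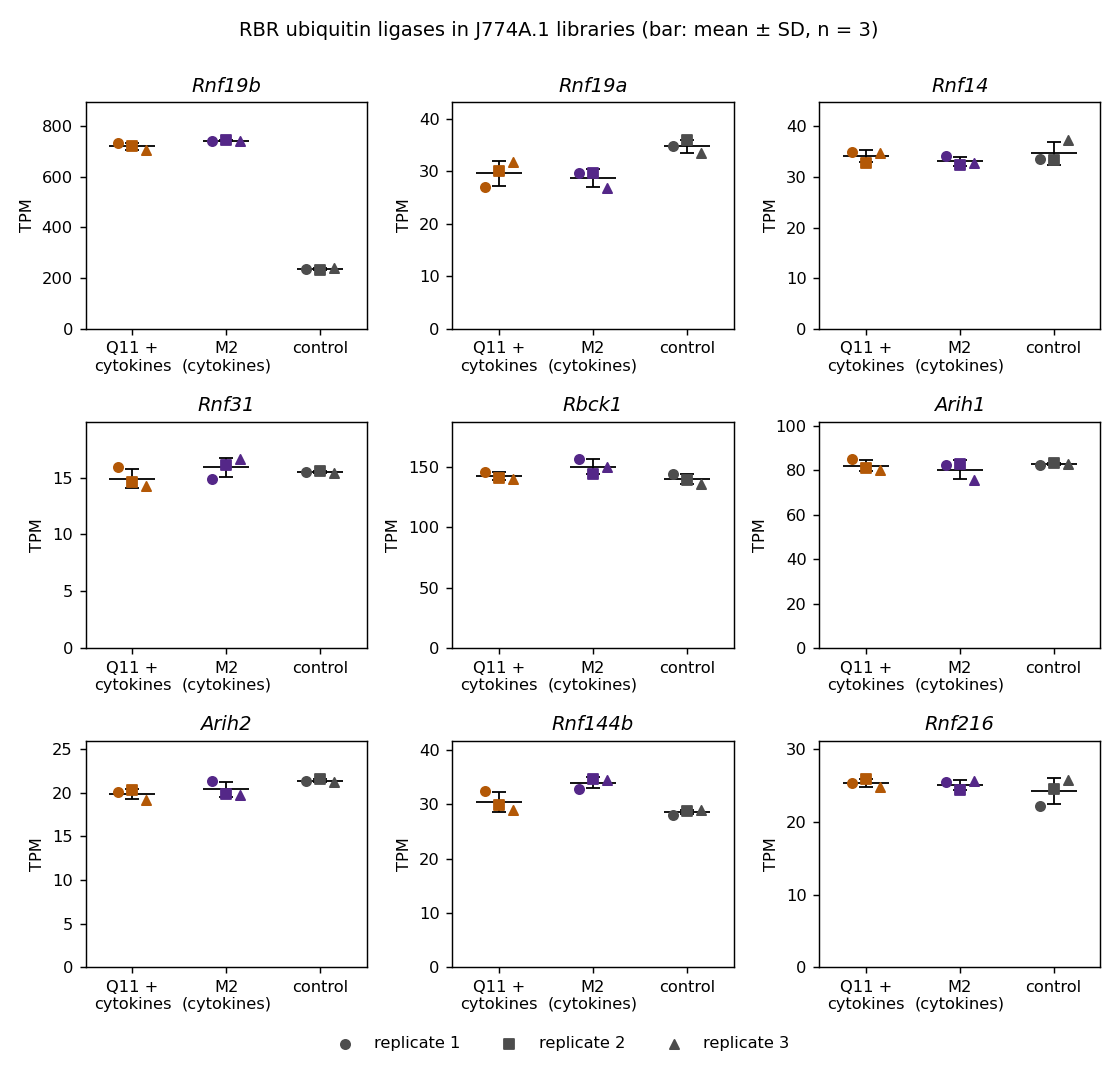
TPM of the 9 RBR ligase genes (y axes, each starting at 0) in the Q11, M2 and control libraries (x axes). Symbols are replicates and the bar with whiskers is the mean ± SD of 3 libraries. Rnf19b separates the control libraries (233 to 241 TPM) from the rest (705 to 744 TPM), while the other genes stay within narrow ranges.

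Whether Q11 altered the raised level of Rnf19b can be tested, although the M2 libraries that helped to choose the gene enter this comparison too. Q11 against M2 differed by -0.04 on the log2(TPM + 1) scale (95% interval -0.10 to 0.01), and limma's adjusted p was 0.50, so the difference did not pass. As deposited, all Q11 values lay below all M2 values, but by little: the highest Q11 library had 733 TPM and the lowest M2 library 741 TPM. With shared reads separated, Q11 replicate 2 had 748 TPM and the groups overlapped (difference -0.03, -0.09 to 0.04, adjusted p = 0.838). In this comparison 0 of 14207 genes passed (limma, percent called 0.0), 1620 genes (11.4%) had an unadjusted p under 0.05, and the groups of 17.6% of genes did not overlap. The lower ends of the intervals were -0.10 as deposited and -0.09 with shared reads separated. Like the p-values, these intervals measure the spread between these libraries, which may be technical.

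The sum was taken over 12 RBR ligases of the table, out of 13 symbols looked for. They summed to 1139, 1119 and 1099 TPM in Q11 libraries, to 1160, 1149 and 1142 TPM in M2 libraries and to 640.0, 636 and 642 TPM in control libraries. Nearly all of this difference was Rnf19b. Without it, the sum was 399 ± 6.07 TPM in Q11, 408 ± 8.61 TPM in M2 and 403 ± 1.65 TPM in control libraries. Rnf19b supplied 64.3 ± 0.18% of this sum in Q11, 64.6 ± 0.48% in M2 and 37.0 ± 0.451% in control libraries.

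**Figure D2:**
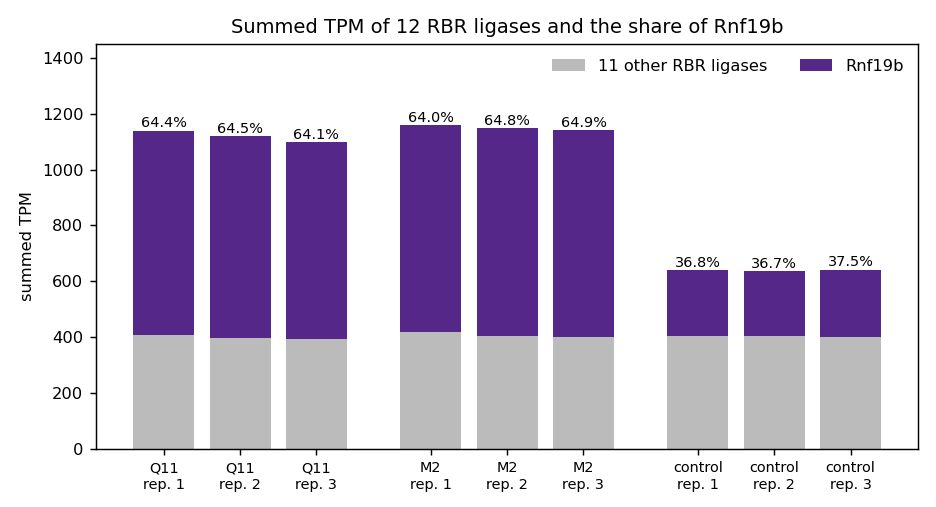
Summed TPM of 12 RBR ligases in each library (bars), split into Rnf19b (purple) and the 11 others (grey), with the share of Rnf19b printed above each bar. The grey parts lie between 394 and 417 TPM in all 9 libraries, and the share of Rnf19b is 64.0% to 64.9% in Q11 and M2 libraries and 36.7% to 37.5% in control libraries.

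Of the 8 other members, all of which passed the filter on low values, 1 rose and 1 fell in M2 against control, and their median difference was -0.006 (all genes tested, -0.003). Over all genes tested 12.6% passed in this comparison, 6.88% upwards and 5.75% downwards (9.22% in all with shared reads separated), and 2 of 8 genes is too few to set apart from that background. In Q11 against M2 none of the 8 passed in limma's test with all 9 libraries, where 0 of 14207 genes did. Of the 8, 1 gene, Rnf144b, had an unadjusted p under 0.05, as 11.4% of all genes had, and the median was -0.011. In Q11 against control 10.7% of all genes passed (1106 of 14015 with shared reads separated), and none of the 8 did in the same test. Among them 1 had an unadjusted p under 0.05, as 23.9% of all genes had. Rnf19a did pass with a stricter filter of 5 TPM (limma adjusted p = 0.0491). Of the 8, the groups did not overlap for 2 in M2 against control (28.4% of all genes), for 1 in Q11 against M2 (17.6%) and for 3 in Q11 against control (32.1%). The comparisons share libraries.

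Rnf19a encodes the closest relative of Rnf19b, a membrane-anchored ligase also called dorfin (ENSMUSG00000022280, chromosome 15, 36239933 to 36283147, minus strand). It had 27.0, 30.1 and 31.8 TPM in Q11 libraries, 29.7, 29.6 and 26.7 TPM in M2 libraries and 34.7, 35.9 and 33.4 TPM in control libraries. All cytokine-treated libraries lay below all control libraries, the opposite order to Rnf19b. Rnf19a fell in M2 against control by 0.27 on the log2 scale (95% interval -0.42 to -0.12, limma adjusted p = 0.0316; separated, 0.0404).

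That call was fragile. The adjusted p was 0.0625 with every low gene kept, 0.0588 without a trend of variance with level and 0.064 with a replicate block. Leaving out any control library also ended the call (adjusted p = 0.0838, 0.0926 and 0.0549 for replicates 1, 2 and 3), as did leaving out M2 replicate 1 (0.054), M2 replicate 3 (0.0884) or Q11 replicate 2 (0.054). Q11 against M2 differed by 0.05 (-0.10 to 0.20, adjusted p = 0.819), and Q11 against control by -0.22 (-0.37 to -0.07, adjusted p = 0.0694). Rnf19b stood at 22.2 to 27.1 times the TPM of Rnf19a in Q11, 25.0 to 27.8 times in M2 and 6.49 to 7.21 times in control libraries.

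Rnf144b encodes a ligase known as a p53-induced gene in human cells (ENSMUSG00000038068, chromosome 13, 47122656 to 47247991, plus strand). It had 32.4, 29.8 and 29.0 TPM in Q11 libraries, 32.8, 34.7 and 34.4 TPM in M2 libraries and 28.1, 28.8 and 28.9 TPM in control libraries. The M2 libraries were above all others, and the Q11 libraries lay between, with replicate 3 only just above the controls. Rnf144b rose in M2 against control by 0.24 (0.13 to 0.35, limma adjusted p = 0.0123), a call that held in all 18 alternative settings with adjusted p between 0.0069 and 0.0463. Its rise, 18.8% of the control mean, was small beside that of Rnf19b.

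With Q11 added, Rnf144b differed from M2 by -0.16 (-0.26 to -0.05), the widest gap of the 9 members in this comparison. The unadjusted p was 0.00983 and limma's adjusted p was 0.345, so it did not pass. With shared reads separated the difference was -0.14 (-0.25 to -0.02, adjusted p = 0.583). Q11 against control differed by 0.08 (-0.02 to 0.19, adjusted p = 0.329), so at this precision Rnf144b in the Q11 libraries was not placed apart from either of the other groups.

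**Figure D3:**
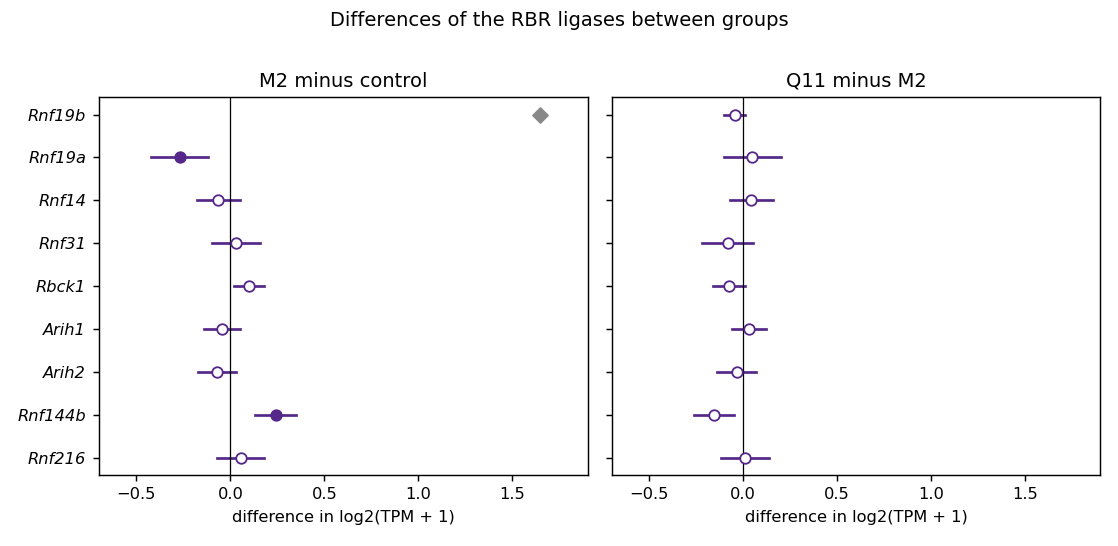
Difference in log2(TPM + 1) of each member (x axis) for M2 minus control (left) and Q11 minus M2 (right); bars are 95% intervals from limma, filled circles passed at an adjusted p under 0.05, and the grey diamond is Rnf19b, shown with no test where it was picked. Rnf19b lies at 1.65 on the left, where Rnf19a (-0.27) and Rnf144b (0.24) are the only filled circles, and no gene passed on the right.

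For both members that belong to LUBAC the groups overlapped. Rnf31 encodes HOIP, the subunit that makes linear chains (chromosome 14, 55591708 to 55603693). It had 15.9, 14.6 and 14.3 TPM in Q11, 14.9, 16.1 and 16.6 TPM in M2 and 15.5, 15.6 and 15.4 TPM in control libraries. The M2 libraries spanned the control values, and M2 against control differed by 0.03 (-0.10 to 0.16, adjusted p = 0.792).

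Rbck1 encodes HOIL-1L, the LUBAC subunit that carries an RBR domain of its own (chromosome 2, 152316334 to 152332653). It was the most abundant member after Rnf19b, with 146, 141 and 139.7 TPM in Q11, 156, 144 and 149.6 TPM in M2 and 144, 139 and 136 TPM in control libraries. M2 against control differed by 0.10 (0.02 to 0.18, limma adjusted p = 0.121) and Q11 against M2 by -0.08 (-0.16 to 0.01, adjusted p = 0.475). Neither passed, and M2 replicate 2 equalled the highest control library at 144 TPM.

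Among 13 genes tested from a list of LUBAC partners, deubiquitinases and TNF receptor complex proteins, 1 rose and 2 fell in M2 against control (all genes, 6.88% and 5.75%), with a median of 0.004. Otulin, the deubiquitinase that cuts linear chains, averaged 173 ± 4.81 TPM in Q11, 183 ± 12.3 TPM in M2 and 157 ± 5.45 TPM in control libraries, and rose in M2 by 0.22 (0.11 to 0.33, limma adjusted p = 0.0214). That call was lost without control replicate 1 (0.0751) or control replicate 3 (0.0673) and in 2 other settings of 18. Tnip1, a ubiquitin-binding partner of the deubiquitinase A20, averaged 111 ± 1.04 TPM in Q11, 116 ± 2.66 TPM in M2 and 138 ± 1.31 TPM in control libraries. Tnip1 fell in M2 by 0.24 on the log2 scale (-0.30 to -0.18, adjusted p = 0.000507) and held in all 18 settings. The TNF receptor gene Tnfrsf1a, at 208 ± 4.87, 214 ± 6.28 and 237 ± 5.87 TPM in Q11, M2 and control libraries, fell by 0.15 (adjusted p = 0.0175), which was lost with shared reads separated (0.06), without a variance trend (0.0593), and when 1 library was left out, namely control replicate 1 (0.0543) or 2 (0.0583) or M2 replicate 1 (0.058). Tnip1 and Tnfrsf1a also fell in Q11 against control, where 5.53% of all genes did (limma adjusted p = 0.000126 and 0.00741). The Tnfrsf1a call there was lost with shared reads separated (0.0557). None of the 13 passed in Q11 against M2 in limma's test, with 5 at an unadjusted p under 0.05 (11.4% of all genes). Sharpin, the LUBAC subunit without an RBR domain, did not pass (adjusted p = 0.904 in M2 against control).

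The ariadne ligases work on cullin-RING ligases that carry the modifier NEDD8. Arih1 (chromosome 9, 59388258 to 59486618) had 84.9, 81.0 and 80.2 TPM in Q11, 82.2, 83.0 and 75.5 TPM in M2 and 82.3, 83.1 and 82.8 TPM in control libraries. The groups overlapped, with M2 replicate 3 as the lowest library, and M2 against control differed by -0.04 (-0.14 to 0.05, adjusted p = 0.547). Arih2, the partner of cullin 5 (chromosome 9, 108602942 to 108649386), had 20.1, 20.3 and 19.2 TPM in Q11, 21.4, 19.9 and 19.8 TPM in M2 and 21.4, 21.6 and 21.2 TPM in control libraries.

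All Arih2 values of the Q11 libraries were below those of the controls as deposited, but with shared reads separated Q11 replicate 2 had 21.7 TPM and the groups overlapped. The difference in Q11 against control was -0.10 (-0.21 to 0.0017, adjusted p = 0.217). Of 16 cullin and neddylation genes, 3 rose and none fell in M2 against control in limma's test (all genes, 6.88% and 5.75%), with a median of 0.02. These were Rbx1, the RING subunit of cullin ligases, at 75.8 ± 1.53 TPM in Q11, 78.5 ± 0.771 TPM in M2 and 71.0 ± 1.08 TPM in control libraries (0.14, adjusted p = 0.0121), Cul4a (0.14, adjusted p = 0.0129) and Nedd8, the modifier itself (0.12, adjusted p = 0.0188). With only M2 and control libraries fitted the Cul4a call was lost (limma adjusted p = 0.0536). The Nedd8 call was lost when control replicate 1 (0.0597) or 3 (0.0653) or M2 replicate 1 (0.0513) was left out and in 2 other settings. Of the 16, only Cul4a also passed in Q11 against control (0.10, limma adjusted p = 0.0494). That call was lost in 11 of 18 settings, among them shared reads separated (0.069) and leaving out any 1 Q11 or control library (0.0998 to 0.153) or M2 replicate 2 (0.0519) or 3 (0.0529).

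Rnf14, known in human cells as a coactivator of the androgen receptor (chromosome 18, 38284537 to 38317849), had 34.9, 32.8 and 34.7 TPM in Q11, 34.1, 32.4 and 32.7 TPM in M2 and 33.5, 33.3 and 37.3 TPM in control libraries. Control replicate 3 was the highest library and the groups overlapped (M2 against control -0.07, -0.18 to 0.05, adjusted p = 0.474). Rnf216, also called TRIAD3 and known for acting on Toll-like receptors (chromosome 5, 142990893 to 143112994), had 25.3, 25.9 and 24.8 TPM in Q11, 25.5, 24.4 and 25.6 TPM in M2 and 22.2, 24.5 and 25.8 TPM in control libraries. Its widest spread was within the controls, and M2 against control differed by 0.06 (-0.07 to 0.18, adjusted p = 0.585).

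For the 6 members that did not pass in M2 against control, the 95% intervals together ran from -0.18 (Rnf14) to 0.18 (Rbck1 and Rnf216), which leaves out a change of the size described for Rnf19b. In Q11 against M2, the intervals of the 8 members reached from -0.26 (Rnf144b) to 0.20 (Rnf19a).

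The order of levels after Rnf19b was led in every group by Rbck1 and then Arih1, whose values did not overlap with those of other members. Rnf14 and Rnf19a overlapped in control libraries (33.3 to 37.3 and 33.4 to 35.9 TPM), above Rnf144b at 28.1 to 28.9 TPM. In M2 libraries Rnf144b (32.8 to 34.7 TPM) overlapped with Rnf14 (32.4 to 34.1 TPM), and both stood above Rnf19a (26.7 to 29.7 TPM). In Q11 libraries Rnf144b (29.0 to 32.4 TPM) overlapped with Rnf19a (27.0 to 31.8 TPM), below Rnf14 (32.8 to 34.9 TPM). Rnf216, Arih2 and Rnf31 followed in that order by mean in all groups.

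Outside the 9 members, Ankib1 was the only RBR ligase tested, at 20.6 ± 1.38 TPM in Q11, 20.3 ± 0.466 TPM in M2 and 20.9 ± 1.1 TPM in control libraries (M2 against control -0.04, adjusted p = 0.759). Cul9 and Rnf144a averaged under 1 TPM in every group and were not tested. Rnf144a, the close relative of Rnf144b, averaged 0.116, 0.0648 and 0.11 TPM in Q11, M2 and control libraries, far below Rnf144b. Of 5 E2 enzymes used by RBR ligases, none passed in M2 against control in limma's test (12.6% of all genes), 4 had an unadjusted p under 0.05 (26.1% of all genes), and the median was -0.13. The 2 nearest to the threshold were Ube2l3 (-0.13, limma adjusted p = 0.056) and Ube2d1 (-0.19, adjusted p = 0.0612). None of 6 ubiquitin and E1 genes passed in that test, with 1 at an unadjusted p under 0.05.

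A further 54 tested genes have symbols that start with Rnf, most of them RING ligases of other classes. In M2 against control 4 of the 54 rose and 5 fell (all genes, 6.88% and 5.75%), from -0.51 to 0.63 with a median of -0.008, against 1.65 for Rnf19b. Rnf24 averaged 10.8 ± 0.726 TPM in Q11, 10.0 ± 0.77 TPM in M2 and 6.12 ± 0.464 TPM in control libraries and rose by 0.63 (0.44 to 0.82, limma adjusted p = 0.0017). Rnf151 averaged 1.32 ± 0.129 TPM in Q11, 3.41 ± 0.538 TPM in M2 and 1.97 ± 0.592 TPM in control libraries and differed by 0.58 in M2 (0.18 to 0.98), which did not pass (adjusted p = 0.0685; 0.0358 without control replicate 2). Rnf149 averaged 242 ± 9.19 TPM in Q11, 228 ± 12.3 TPM in M2 and 325 ± 6.34 TPM in control libraries and fell by 0.51 on the log2 scale (-0.61 to -0.41, adjusted p = 0.000136). Rnf227 averaged 15.2 ± 1.25, 13.1 ± 0.592 and 16.9 ± 0.888 TPM in Q11, M2 and control libraries and fell by 0.34 in M2 (adjusted p = 0.0143), a call lost without control replicate 3 (0.0517) and with shared reads separated (0.112).

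**Figure D4:**
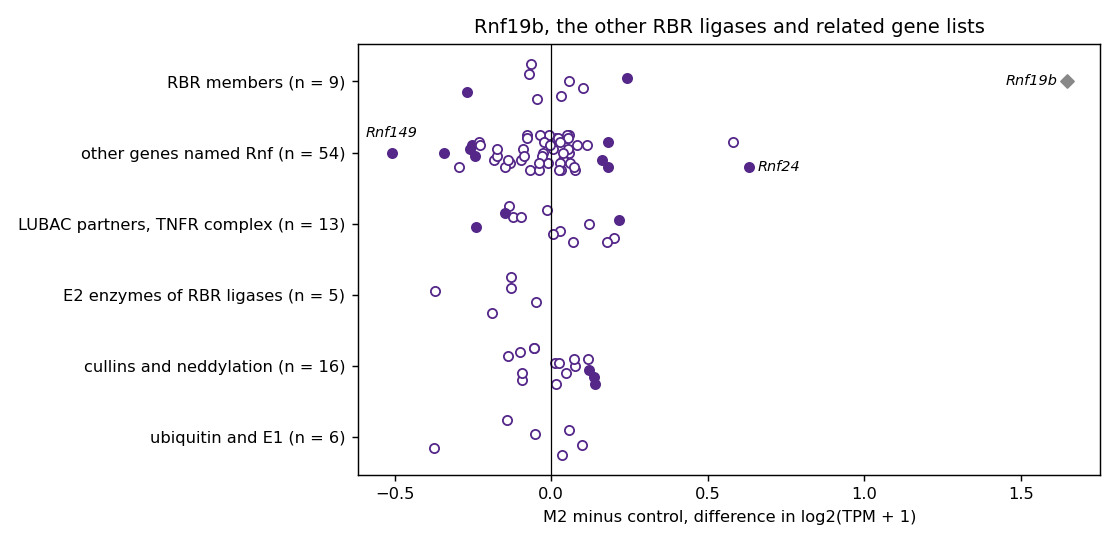
M2 minus control difference in log2(TPM + 1) (x axis) of the tested genes of each list (rows); filled circles passed limma's test at an adjusted p under 0.05, and the grey diamond is Rnf19b, shown with no test. Rnf19b, which was chosen by its rise in these libraries, lies at 1.65, beyond every other gene drawn, the next being Rnf24 at 0.63.

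Some genes near Rnf19b on chromosome 4 were also higher under the cytokines. Of 13 genes of the table looked at within 250 kb, 10 were tested, and 3 rose and none fell in M2 against control in limma's test, where 6.88% of all genes rose. Around the other 8 members, 85 genes were tested in windows of the same size, and 6 rose and 3 fell. In Q11 against control 1 of the 10 neighbours of Rnf19b rose (5.19% of all genes), and in Q11 against M2 none passed in limma's test or had an unadjusted p under 0.05.

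Azin2, an antizyme inhibitor that protects the polyamine enzyme ornithine decarboxylase, begins 95.8 kb upstream of the Rnf19b start (ENSMUSG00000028789, 128930233 to 128962442, minus strand). It had 31.2, 33.9 and 34.9 TPM in Q11, 33.9, 31.2 and 37.4 TPM in M2 and 7.38, 6.88 and 9.97 TPM in control libraries. The groups given cytokines overlapped each other and lay above every control. Azin2 rose 4.23-fold by mean TPM in M2 against control, with a log2 difference of 1.97 (1.69 to 2.24, limma adjusted p = 2.18e-05), and Q11 against M2 differed by -0.03 (-0.31 to 0.24, adjusted p = 0.941).

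The other neighbours that rose rest on weaker data. Gm15904, annotated over Azin2 on the opposite strand, averaged 2.05, 3.56 and 0.697 TPM in Q11, M2 and control libraries on 1 to 11 reads per library (1.43, 0.67 to 2.2, adjusted p = 0.0253). Its call was lost with shared reads separated (0.0515), in 2 other settings of 17, and when 1 library was left out, namely control replicate 1 (0.0805) or 2 (0.0751) or M2 replicate 2 (0.06) or 3 (0.082). The sources used here do not say whether counting used strand, so its reads cannot be told apart from those of Azin2. Yars, the tyrosyl-tRNA synthetase gene, averaged 97.4 ± 0.847 TPM in Q11, 99.7 ± 4.54 TPM in M2 and 91.4 ± 0.555 TPM in control libraries (0.12, limma adjusted p = 0.0474). Its call was lost in 14 of 18 settings, among them leaving out any 1 library but M2 replicate 2 (adjusted p = 0.0658 to 0.119).

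The nearest annotated start, that of the noncoding gene 1700086P04Rik 0.3 kb upstream, was at 0.613, 0.944 and 1.41 TPM in Q11, M2 and control libraries and did not pass (adjusted p = 0.65). Trim62, S100pbp, C77080, Gm12976, Rbbp4 and Zbtb8os, which flank the group, did not pass either, and Hpca, Fndc5 and Sync were below the filter. Azin2 was thus the neighbour described here whose rise held in all 18 settings.

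**Figure D5:**
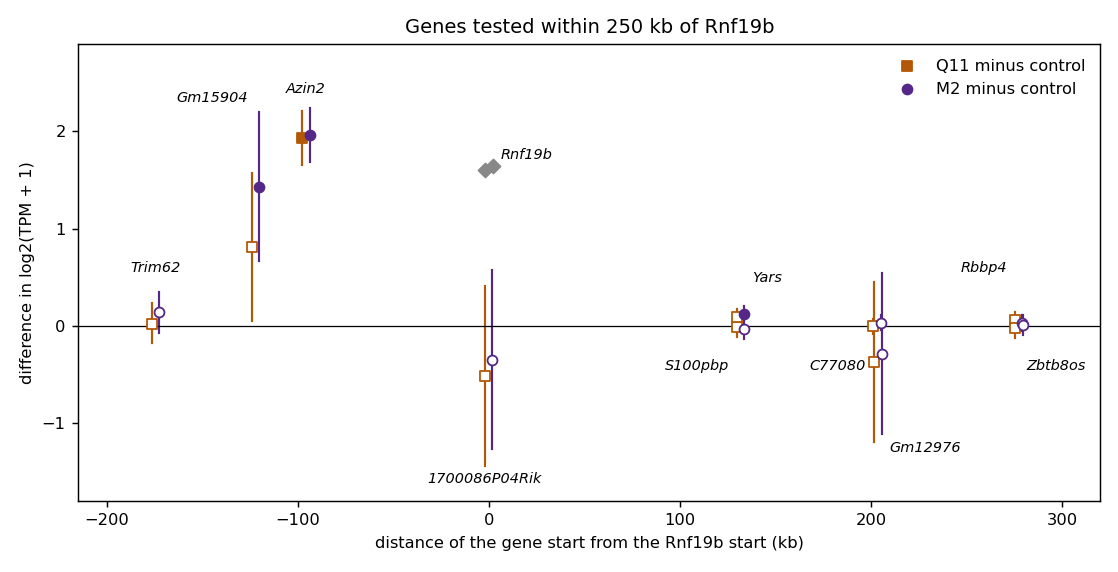
Difference in log2(TPM + 1) from control (y axis) of the genes tested within 250 kb of Rnf19b, against the distance of each gene's start from that of Rnf19b (x axis, kb; a gene whose body lies in the window can start outside it). Squares are Q11 and circles M2, bars are 95% intervals, filled symbols passed limma's test, and the grey diamonds are Rnf19b with no test; Azin2 (1.93 and 1.97) stands out upstream.

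Across the 9 libraries, the genes whose level moved most like that of Rnf19b were found as the smallest root mean square difference of log2(TPM + 1), centred on each gene's mean, among the 10101 genes whose mean reached 5 TPM. They were Clec10a (0.0672), Slc7a2 (0.0851), Pim3 (0.114), Wdfy2 (0.163), Tarm1 (0.169) and Pxdc1 (0.187), and since they were chosen for this likeness no test is given. Clec10a, a galactose-type lectin of macrophages, averaged 211 ± 4.86 TPM in Q11, 223 ± 11.7 TPM in M2 and 75.0 ± 2.28 TPM in control libraries. Slc7a2, a carrier of arginine and other cationic amino acids, averaged 18.2 ± 0.298 TPM in Q11, 18.8 ± 1.62 TPM in M2 and 5.73 ± 0.43 TPM in control libraries.

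Each of these 6 genes was higher in every cytokine-treated library than in every control library, as their choice by likeness to Rnf19b implies. Their levels lay well below that of Rnf19b. Pim3, a serine/threonine kinase, averaged 262 ± 2.77 TPM in Q11, 267 ± 10.7 TPM in M2 and 100.0 ± 5.03 TPM in control libraries. Wdfy2, an endosomal protein, averaged 135 ± 3.51 TPM in Q11, 137 ± 7.16 TPM in M2 and 54.8 ± 2.55 TPM in control libraries. Azin2 took place 8 in this order (0.205) and the mannose receptor gene Mrc1, a marker of alternative activation, place 9 (0.216). Mgl2, another such marker, took place 149 (0.598), as this measure also counts the size of a rise. Mgl2 averaged 957 ± 28.7 TPM in Q11, 1004 ± 90.0 TPM in M2 and 132 ± 1.93 TPM in control libraries. Its difference in M2 against control was 2.92, where that of Rnf19b was 1.65. Further markers looked for, Arg1, Chil3 and Retnla, averaged at most 3.56, 0.773 and 0.119 TPM in any group. They were below the 5 TPM needed to be compared. Of these only Arg1 passed the filter of limma's test, at 2.17 TPM in Q11, 3.56 TPM in M2 and 0.302 TPM in control libraries on average. Arg1 rose in M2 against control (1.69, limma adjusted p = 0.0228) and did not pass in Q11 against control (1.23, adjusted p = 0.0815). No member other than Rnf19b was among the nearest genes named here.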

How the data were processed

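Poly-A RNA of 9 J774A.1 libraries was measured. The authors' deposited file holds TPM of 26157 genes. Per the submitters' processing notes, HISAT2 2.0.5, StringTie 1.3.3b and GRCm38 were used. Other details, such as counting settings, strand and annotation release, are not given in the sources used here. TPM keep no depth, but TPM times GENCODE M21 exon length gave whole reads for 98.8% to 99.1% of low values (up to 20 reads, tolerance 0.1 read), which gave depths and the separated Q11 replicate 2. Depth limits cover counting error only.

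The 14207 genes reaching 1 TPM in 3 or more libraries were fitted as log2(TPM + 1), with 1 mean per group, in limma 3.58.1 (R 4.3.3, empirical Bayes with trend, 6 residual degrees of freedom). All 9 libraries gave 1 shared spread, so Q11 replicates 2 and 3 enter every p-value, also in M2 against control. As these were taken to share reads, the spread can come out too small and the p-values too low. With shared reads separated, 1292 of 14015 genes passed in M2 against control, where 1794 of 14207 did as deposited. A difference on this scale understates the change of low genes. Tests were two-sided, with Benjamini-Hochberg adjustment across those genes and a threshold of 0.05. The separated fit tested 14015 genes. The fit was tested on simulated data. Tables were made with pandas 2.3.3 and numpy 2.4.6 (Python 3.11.15) and plots with matplotlib 3.10.9.

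The members and lists were chosen with earlier results of these data known. Named genes were the members, other RBR ligases, up to 4 passing genes per list with the largest change, the 6 genes most like Rnf19b, genes within 250 kb of it, and the 3 other Rnf genes with the largest difference in M2 against control. Rnf227 (the third by size among those that passed), Mrc1, Mgl2, Arg1, Chil3, Retnla, Sharpin, Ube2l3 and Ube2d1 were named after their values were seen. So were the macrophage markers Lyz2, Itgam and Ptprc. Rnf217 was not analysed here. Further genes of the family and of the 250 kb window are not reported here and are left out of the printed sums and counts. Upstream sequences come from RefSeq (GRCm38.p6).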

Additional observations from a re-analysis of the deposited data

How the results depend on the processing

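Each result was recomputed with other pseudocounts, filters, no variance trend, quantile normalization, a replicate block, only the groups compared, shared reads separated, and without each library. In M2 against control 1794 genes passed, 1110 with only the 2 groups compared, and 1146 (without control replicate 1) to 1656 with 1 library left out; without control replicate 3 it was 1178. Members other than Rnf19b that passed numbered 2, and 1 with no filter on low values, no variance trend or a replicate block (1 to 2 with 1 library left out). In Q11 against M2, 0 genes passed, 3 with no filter, 2 with no variance trend and 0 to 2 with 1 library left out (2 without M2 replicate 1). In Q11 against control 1524 passed, 1106 with shared reads separated, and 771 (without Q11 replicate 3) to 1616 with 1 library left out. Without Q11 replicate 2 it was 792. None of the 8 other members passed there, but 1 did with a filter of 5 TPM. In every comparison the cause was not tested.

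With the replicate number as a block, 1335 genes passed in M2 against control, 0 in Q11 against M2 and 1086 in Q11 against control. Deviations from the group means had correlations of -0.0309 to 0.0362 between same-numbered libraries and -0.0466 to 0.059 between the others. These cannot settle whether the numbers pair the samples, since each mean rests on 3 libraries and Q11 replicates 2 and 3 share reads.

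Differences near 0 changed sign with 1 library left out: Rnf216 in M2 against control (-0.001 to 0.102), Rnf19a (-0.004 to 0.109), Arih1 (-0.012 to 0.056), Arih2 (-0.051 to 0.002), Rnf216 (-0.012 to 0.025, and -0.00044 with quantile normalization) and Azin2 (-0.096 to 0.032) in Q11 against M2, and Rnf14 (-0.051 to 0.03) and Arih1 (-0.038 to 0.003) in Q11 against control. For single genes 985 recomputed values kept direction and, where tested, side of the threshold. Another 59 lost their call, 2 gained one and 13 changed sign. The 1 value counted as moved was that of Rnf19b in M2 against control with quantile normalization (1.619). Rnf19b in M2 against control stayed between 1.619 and 1.659. At these depths each member had at least 411 reads per library.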
